A study of Rattus norvegicus with 98 samples.

Results

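The shell (NaCshell) and the core (NaCcore) of the nucleus accumbens were compared for H3K27ac, acetylation of lysine 27 of histone H3, with all 4 libraries of the shell set against all 4 of the core. These 8 libraries are every accumbens library among the 94 peak lists of the series, which covers 25 brain regions. The animals were male Long-Evans rats, 2 months old at the start, that had 18 mg/kg fluoxetine in their drinking water (FT) or water alone (Sham) for 6 weeks. Each subregion had 2 Sham and 2 FT libraries, and each library came from punches of frozen sections pooled over 10 animals, so an animal's own value is not seen. Shell and core libraries with the same treatment and replicate number are called a pool below. The sources imply, without stating it outright, that such libraries came from the same animals. Libraries were sequenced 4 to a lane, and as it is not stated which 4 shared one, lane and subregion cannot be told apart.

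The nucleus accumbens is the ventral part of the striatum, and most of its neurons are GABAergic medium spiny neurons that receive dopamine from the ventral tegmental area. The core resembles the dorsal striatum in its connections and is known for its part in goal-directed action, while the shell exchanges fibres with the hypothalamus and extended amygdala and is known for its part in feeding, reward and affect. H3K27ac marks active promoters and enhancers, wide stretches of it often mark clusters of enhancers near genes that define a cell's identity, and the enhancer part of the landscape differs most between cell types. A punch holds many cell types, so a change in the share of cells that carry the mark at a site cannot be told apart from a change in the amount of mark per cell.

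The peak lists hold positions on the Rn5 rat genome, a score for each peak (maxScore) and its -log10 p, but no read counts, so the depth of the libraries is unknown. No Rn5 gene annotation entered the comparison. Sites are therefore given by position, without genes, and the labelled subregions could not be checked against marker genes. Positions are written chromosome, start and end, counted from 1.

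List length varied more within each subregion than between them. The shell lists held 29100 and 27694 peaks in Sham replicates 1 and 2 and 24429 and 49521 in FT replicates 1 and 2. The core lists held 28154 and 36508 peaks in Sham and 47275 and 48063 in FT. Shell FT replicate 2 thus had a list as long as those of the FT core, while the other 3 shell lists were short. The mean was 32686 ± 11393 peaks (SD, n = 4) in the shell and 40000 ± 9495 (SD, n = 4) in the core, a difference within the spread of the libraries (exact permutation test over samples, two-sided, p = 0.371, where 4 against 4 cannot go below 0.0286). Covered length likewise overlapped, at 48.8 ± 22.3 Mb in the shell and 63.5 ± 19.6 Mb in the core (SD, n = 4, exact permutation p = 0.343). In Sham replicate 1 and FT replicate 2 the shell list was longer than the core list of its pool by only 3.36% and 3.03%. In Sham replicate 2 the ratio of shell to core length was 0.759 and in FT replicate 1 it was 0.517. All lists were therefore cut to the 24429 best-scoring peaks, the length of the shortest, before sites were compared.

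On the cut lists, peaks of the core tended to be wider, and the width of a library went with the length of its list. The median width was 1500 and 1400 bp in shell Sham, 1400 and 2100 bp in shell FT, 1500 and 1800 bp in core Sham and 2100 and 2100 bp in core FT. Shell and core overlapped fully, with means of 1600 ± 337 and 1875 ± 287 bp (SD, n = 4, exact permutation p = 0.314). Peaks of at least 4 kb, the widest class, were rare in both. They made up 0.0819% and 0.0614% of the cut list in shell Sham, 0.0368% and 0.573% in shell FT, 0.147% and 0.303% in core Sham and 0.778% and 0.823% in core FT. The share was lower in the shell than in the core in 4 of 4 pools, at 0.188 ± 0.257% against 0.513 ± 0.339% (SD, n = 4), but the groups overlapped through shell FT replicate 2 and the test did not pass (exact permutation p = 0.171). With that library the log2 ratio of shell to core was -1.45, and without it -3.09 (exact permutation p = 0.0857).

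**Figure D1:**
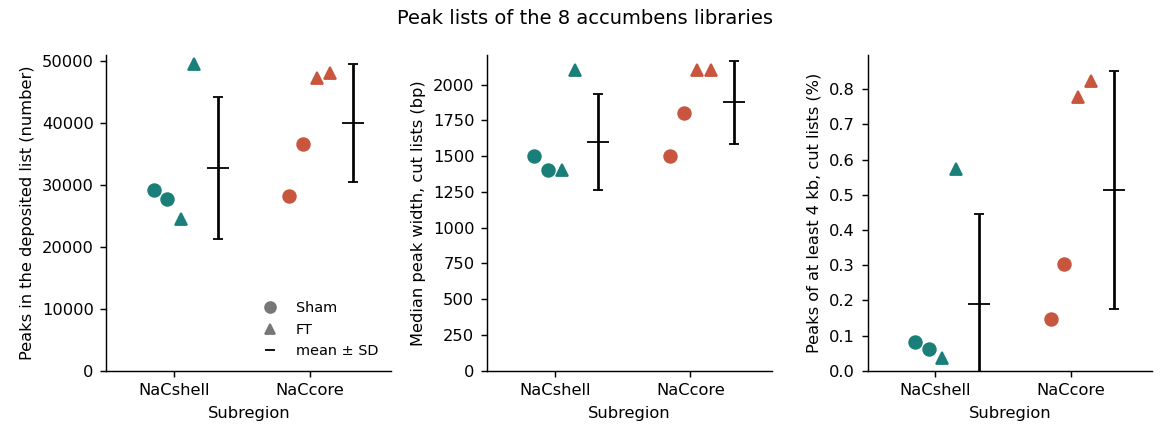
Number of peaks in the deposited list (left), median peak width in bp on lists cut to 24429 peaks (middle) and percent of peaks of at least 4 kb on the cut lists (right) for the 4 NaCshell and 4 NaCcore libraries, with circles for Sham, triangles for FT and the mean ± SD in black. Shell FT replicate 2, at 49521 peaks and a median of 2100 bp, sits with the FT core libraries and apart from the other 3 shell libraries.

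Occupancy was read in 1 kb windows, a window counting as occupied when peaks covered at least 50% of it. Of 79684 windows occupied in at least 1 of the 8 libraries, 18517 were occupied in all 8. Windows occupied in 4 of 4 shell libraries and in no core library numbered 160, or 0.201% of the 79684. In the opposite direction 899 windows, or 1.13%, were occupied in 4 of 4 core libraries and in no shell library. The same 8 lists split by treatment gave 607 windows for FT and 41 for Sham. The core thus had 5.62 times as many windows of its own as the shell, a ratio that changed with how lists were cut and peaks counted. When every list was instead cut to the same covered length, 329 windows were the shell's own and 506 the core's, and with each peak reduced to its centre there were 155 and 425. On full lists the counts were 22 and 536. Leaving out a library loosens the rule, as fewer libraries have to agree, so counts tend to rise. Without core Sham replicate 1, the core library with the shortest list, the core had 2254 windows of its own and the shell 205. Without shell FT replicate 2 the counts were 1763 and 232.

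Likeness of the libraries by occupancy did not separate the subregions beyond the spread. The Jaccard index, the share of windows 2 libraries have in common among those either holds, was 0.588 ± 0.0822 (SD) over the 12 pairs of the same subregion and 0.541 ± 0.0569 over the 16 pairs of shell with core. The difference of 0.0463 did not pass (exact permutation test over samples, p = 0.0571), and for 6 of 8 libraries the nearest other library was of the same subregion. Shell Sham replicate 1 was nearest to core Sham replicate 1 and shell FT replicate 2 to core FT replicate 1. The 6 pairs within the core averaged 0.644. The 6 pairs within the shell averaged 0.531, no higher than the pairs of shell with core, so the excess came from the core pairs. Restricted to strong sites, the difference between same-subregion pairs and pairs of shell with core grew. It was 0.0781 on the 10000 best peaks and 0.120 on the 5000 best, each with exact permutation p = 0.0286, the smallest that 4 against 4 libraries can give.

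Sham and FT libraries are different pools of animals, so windows chosen in one treatment could be read in the other. Same-numbered Sham and FT libraries of a region were processed side by side, per the study's methods, and so share a processing batch. Within Sham, 1699 windows (2.13%) were occupied in both shell libraries and neither core library, and 3184 (4%) in both core libraries and neither shell library. Within FT these counts were 1819 (2.28%) and 6645 (8.34%). Of the core windows chosen in Sham, 2057 were also occupied in more core than shell libraries of FT and 96 in fewer. Thus 95.5% of those that differed at all kept their direction, against 66.9% of all windows that differed. Shares of windows that kept their direction are given below in the same way, among windows that differed. Of the shell windows chosen in Sham, 521 kept their direction in FT and 367 took the opposite one, which is 58.7% against 33.1% of all windows. In the reverse reading, from FT to Sham, 79.1% of the shell windows and 88.1% of the core windows that differed kept their direction. Over all windows that differed these shares were 40.6% and 59.4%. Of those chosen in FT, 1031 of 1819 shell windows and 2895 of 6645 core windows did not differ in Sham. By the rule of all against none, 9.42% of the shell and 28.2% of the core windows chosen in Sham also separated the FT libraries. Over all windows 2.28% and 8.34% did so. From FT to Sham 8.80% and 13.5% met this rule, against 2.13% and 4% of all windows. The direction chosen in one treatment was thus over-represented in the other, in both directions and both readings. Among windows that differed, the shell windows chosen in Sham held least well. For these the share depended on the list: it fell to 23.6% on full lists, just below the 24.5% of all windows there, and rose to 85.9% on the 5000 best peaks. Choosing instead in the pools with like list lengths (Sham replicate 1 and FT replicate 2) and reading in the others gave 62.1% for the shell, against 27.3% of all windows, and 96.5% for the core, against 72.7%. With windows chosen in replicate 1 of both treatments and read in replicate 2, which keeps the processing batches apart, 85.5% of the shell windows and 91.3% of the core windows that differed kept their direction, against 40.9% and 59.1% of all windows. From replicate 2 to replicate 1 the shares were 74.2% and 96.2%, against 32.0% and 68.0%.

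**Figure D2:**
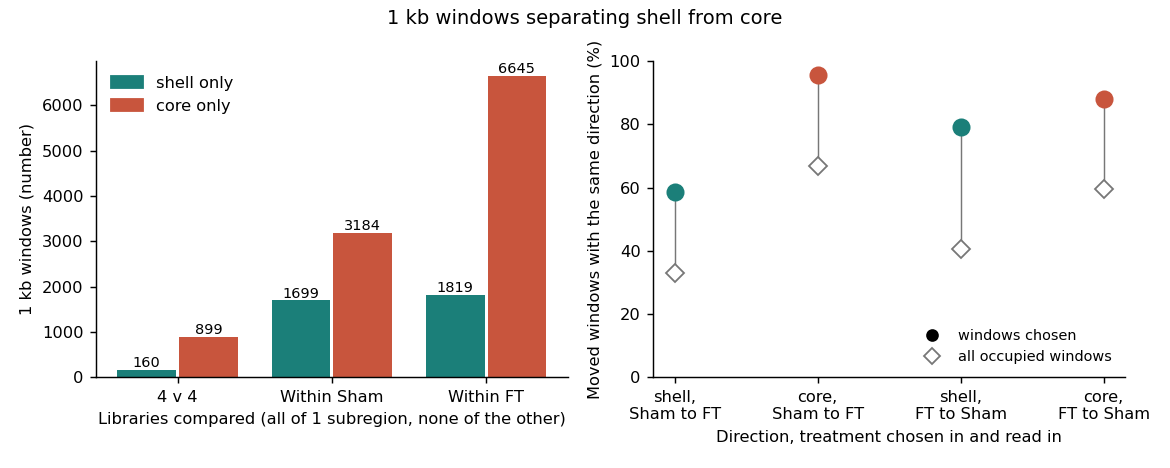
Left, the number of 1 kb windows occupied in all libraries of 1 subregion and none of the other, over 4 against 4 libraries (160 shell, 899 core) and over 2 against 2 within Sham and within FT. Right, for windows chosen in 1 treatment and read in the other, the percent with the same direction among those that differed (filled circles), with the same share over all occupied windows (open diamonds), which lies lower in each case.

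The windows of one subregion were scattered and mostly single. The 160 shell windows formed 150 loci and the 899 core windows 812 loci when windows with at most 1 window between them were joined, spread over all 21 assembled chromosomes in both directions. No locus held more than 2 of these windows, with 10 such loci in the shell and 87 in the core. The median over loci of the mean rank of their peaks was 16505 in the shell and 15904 in the core, in lists of 24429, and 3 of 150 shell loci and 74 of 812 core loci had a mean rank among the best 6107.

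The strongest 2-window shell locus was chr12:41939001-41941000, where the best peaks of the shell libraries ranked between 6185 and 10914. Outside the accumbens it was occupied in 14 of 86 libraries, and in every library of the cingulate cortex (CGC) and the insular cortex (InsularCortex). A neighbour of it in rank, chr18:73275001-73277000, ranked between 5926 and 11914 in the shell and was occupied in 37 of the 86, among them all libraries of 8 regions including the prelimbic (PLC), infralimbic (ILC), cingulate and insular cortices. The locus chr18:79237001-79239000 stood alone, with ranks of 7474 to 14029 in the 4 shell libraries and no occupied library among the 86 outside the accumbens. Of the 10 shell loci with 2 windows, 7 were occupied in every cingulate library and 7 in every insular library, and none in every library of the bed nucleus of the stria terminalis (BNST). These loci separate the subregions on the cut lists, where the share of libraries occupied, shell minus core, is 1 by the rule. On full lists that difference was 0.75 at chr12:41939001-41941000 and 0.25 at chr18:73275001-73277000. Over the 10 loci it ran from 0.125 to 0.75, so none kept the full separation.

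The core loci showed another set of regions. At chr2:175319001-175321000 the best peaks of the core libraries ranked between 5782 and 10285, and the locus was occupied in 54 of the 86 other libraries. At chr1:262716001-262718000 they ranked between 8186 and 9889, with 43 of 86 occupied elsewhere. At chr11:67733001-67735000 the core peaks over the locus had a median width of 4350 bp, the widest of the 20 loci chosen by this rule, where the others lay between 1400 and 2100 bp. A pair of core loci, chr1:17200001-17202000 and chr1:17228001-17230000, lay close together on chromosome 1. All 10 of the strongest core loci with 2 windows were occupied in every library of BNST, the ventral tegmental area (VTA), the raphe (Raphe), the nucleus of the solitary tract (Snt) and the basolateral amygdala (BLA), and none in every library of the prelimbic, infralimbic, cingulate or insular cortex. Over all loci BLA did not set the directions apart, being occupied in every library at 28.9% of the core loci and 27.3% of the shell loci.

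To ask whether sites shared by shell and core also differed in strength, peaks were compared by rank at common elements, which are stretches covered by cut-list peaks of at least 2 of the 8 libraries. There were 31499 such elements, and 13451 had a peak in every library and were tested. Ranks were turned into normal scores, so a score rises with the strength of a site among the sites of its own library, and differences below are in units of this score, shell minus core. By limma, with treatment as a covariate and Benjamini-Hochberg adjustment, 1011 elements (7.52%) ranked higher in the shell and 1889 (14%) higher in the core. By another reading, that all 4 ranks of one subregion lie above all 4 of the other, 1210 elements (9%) were higher in the shell and 2033 (15.1%) higher in the core, among them 699 of the 1011 and 1674 of the 1889. The difference had a median of 0.64 among the elements called for the shell and -0.71 among those called for the core, beside 0.06 over all elements tested. In places on the list, the mean core rank minus the mean shell rank had a median of 5012 among the shell elements and -4868 among the core elements. The called core elements were also stronger sites than average, with 52.9% of them at a mean rank among the best 6107, against 37.2% of the shell elements and 40.5% of all tested.

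The number of calls depended on single libraries, and their direction did not. Without core FT replicate 2 limma called 1 element for the shell and none for the core (lowest adjusted p = 0.0193, with 1574 and 2254 elements at an unadjusted p under 0.05), and without core FT replicate 1 it called 139 and 288. Without each of the other libraries in turn the counts lay between 314 and 975 for the shell and 722 and 1824 for the core. In all 8 of these fits every one of the 1011 and 1889 elements kept its direction, and at least 1009 and 1888 of them had an unadjusted p under 0.05, the samples being largely those that chose them. With the length of the full list as a further covariate limma called 295 and 830 elements. Ranking the peaks of the full lists gave 42 and 832.

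Over all elements tested, rank scores were on average closer within a subregion than between them. The correlation of scores across elements, which are not independent replicates, was 0.813 ± 0.0865 (SD) over the 12 same-subregion pairs of libraries and 0.694 ± 0.0557 over the 16 pairs of shell with core. Their difference of 0.119 passed the exact permutation test over samples (p = 0.0286, the smallest possible), though not without core Sham replicate 2 (0.0904) or core FT replicate 2 (0.0918), each with exact permutation p = 0.0857. All 8 libraries had their nearest neighbour in their own subregion. The core libraries were the closer to each other. Their Sham and FT libraries correlated at 0.850 to 0.887, while Sham and FT libraries of the shell correlated at 0.668 to 0.747. Within Sham, shell and core libraries correlated at 0.723 to 0.789, and within FT at 0.659 to 0.688, so the Sham shell lay nearer to the core than the FT shell did. The Sham shell also correlated more with core libraries of either treatment, at a mean of 0.742, than with the FT shell, at a mean of 0.704.

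The 5 shell elements with the lowest p lay on 4 chromosomes. At chr1:83185918-83188303 the best peak ranked 6845 and 5676 in shell Sham and 3870 and 4430 in shell FT, and 15292, 19910, 16540 and 17728 in the 4 core libraries, so that no core rank came near the shell's. The difference was 1.38 with an SE of 0.16 (limma adjusted p = 0.0107). At chr8:121110543-121112944 the ranks were 4476, 6420, 3141 and 1896 in the shell and 17986, 14879, 18439 and 15589 in the core, a difference of 1.51 (SE 0.18). This element had a peak in 70 of the 86 libraries outside the accumbens and stood highest in the centromedial amygdala (CMA), at a mean percentile of 90.2, and in the insular cortex, at 86.7. At chr13:54055621-54058017 the ranks were 5931, 6671, 3239 and 2848 in the shell and between 14134 and 21912 in the core, and its mean percentile was 81.6 in the medial preoptic area (MPOA) and 0.631 in Snt. The most restricted of the 5, chr10:8441978-8443811, had a peak in 7 of the 86 other libraries. It ranked from 9266 to 12731 in the shell and from 20007 to 21618 in the core. The tightest was chr8:46067725-46069669, with 8228 ± 586 in the shell and 17469 ± 517 in the core (mean rank ± SD, n = 4).

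The 5 core elements also kept the groups apart in every library. At chr11:89755502-89757501 the best peak ranked 6347, 8577, 7878 and 6527 in the 4 core libraries and 18729, 17874, 19693 and 18151 in the shell, a difference of -1.24 (SE 0.13, limma adjusted p = 0.0107). At chr3:137985003-137987283 the core ranks were 7974, 5228, 6284 and 6144, and the shell ranks were 23761 and 22942 in Sham and 18195 and 17314 in FT. That difference, at -1.81 (SE 0.23), was the widest of the 10 elements named here. At chr7:129573302-129575601 the core ranked between 7297 and 10535 and the shell between 17072 and 22745. The elements chr3:176942546-176944783 and chr1:226154410-226156617 had core means of 7112 ± 884 and 7527 ± 1203 and shell means of 18425 ± 1276 and 18781 ± 1718 (rank ± SD, n = 4). Outside the accumbens Snt held 4 of these 5 core elements at the highest mean percentile of all regions, from 81.1 to 87.8, and BNST the fifth, at 79.3.

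**Figure D3:**
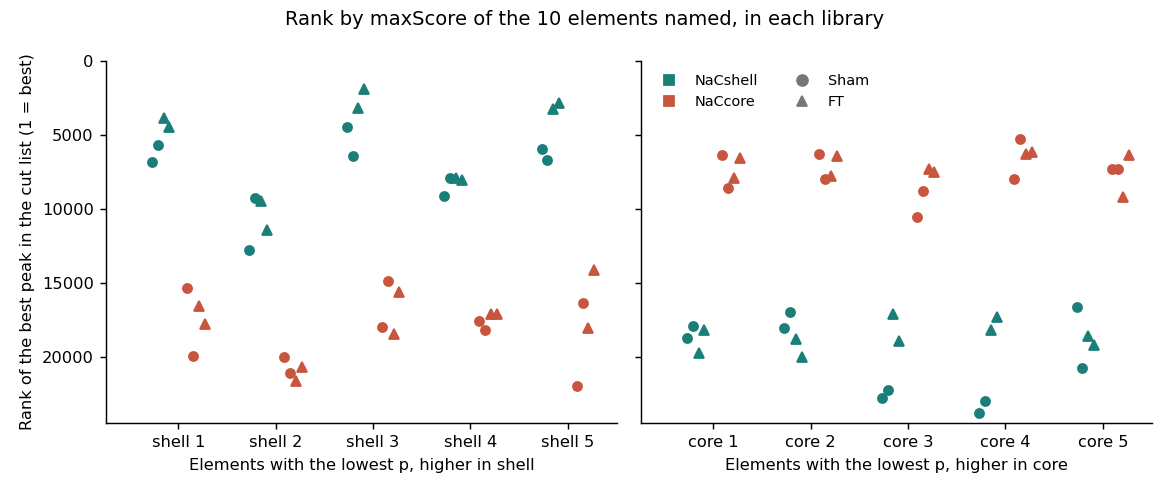
Rank by maxScore of the best peak over each element (vertical axis, 1 at the top) in each of the 8 libraries, for the 5 elements with the lowest limma p in each direction, with NaCshell in green and NaCcore in red, circles for Sham and triangles for FT. In all 10 elements the 4 shell ranks and the 4 core ranks do not overlap.

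Most rank differences kept their direction between Sham and FT. All 1011 shell elements and all 1889 core elements had the called direction in the means of both treatments, which the pooled fit favours. Read across treatments instead, 3580 elements had both Sham shell ranks above both Sham core ranks, and 76.2% of these were higher in the shell in FT, against 53.5% of all elements. For the 3364 elements higher in the core in Sham the share was 79.4%, against 46.5%. From FT to Sham the shares were 72.3% and 81.3%, against 52.6% and 47.4% of all elements. Full reversal without overlap was found for 282 of the 3580 (7.88%) and 430 of the 3364 (12.8%), where 31.5% and 36.5% of all elements had those directions in FT. The test of the difference itself, the interaction of subregion with treatment in limma, called 0 of 13451 elements (0%, lowest adjusted p = 0.149), with 1722 at an unadjusted p under 0.05. With elements that had a peak in at least 4 of the 8 lists, and a missing peak placed after the last, it called 691.

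The called elements were also read by percentile in each treatment. In percentile of the cut list, where 100 is the best peak, the 1889 core elements averaged 83.5 in core Sham and 84.2 in core FT, but 67.8 in shell Sham and 58.7 in shell FT. Their gap was 15.7 points in Sham and 25.5 in FT. The 1011 shell elements averaged 75.3 in shell Sham and 79.7 in shell FT, and 55.8 and 58.5 in the core, with gaps of 19.5 and 21.1 points. These values come from the libraries that chose the elements and are given without a test, and the interaction above called none of the elements.

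**Figure D4:**
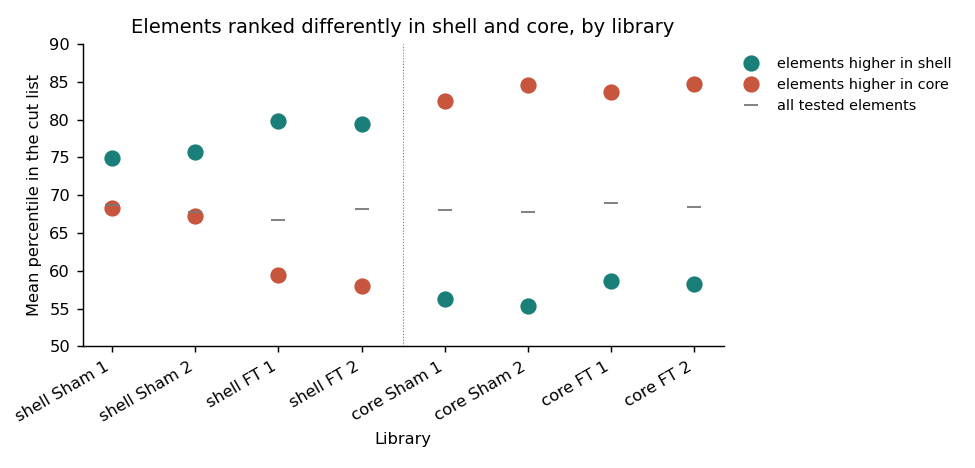
Mean percentile in the cut list (vertical axis, from 50 to 90) of the 1011 elements ranked higher in shell (green), the 1889 ranked higher in core (red) and all 13451 tested (grey dashes) in each of the 8 libraries. In shell Sham the core elements lie close to the mean of all elements, at 68.3 and 67.2, and in shell FT well below it, at 59.5 and 57.9.

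Width at the same elements did not separate the subregions. The median width over the 13451 elements was 1800 and 1700 bp in shell Sham, 1700 and 2200 bp in shell FT, 1800 and 2000 bp in core Sham and 2200 and 2200 bp in core FT, again rising with list length. By limma no element was wider in the shell (0%) or in the core (0%), at a lowest adjusted p of 0.327, with 9 and 2001 elements at an unadjusted p under 0.05. All 4 widths lay above the other 4 for 0 elements in the shell (0%) and for 275 in the core (2.04%). The median difference in log2 width was -0.16, shell minus core. Without shell FT replicate 2 the core had 3032 elements whose widths did not overlap with the shell's, and without core Sham replicate 1 it had 1586, while limma still called none. Such counts tend to rise when a library is left out, as fewer widths have to stay apart. The interaction of subregion with treatment called 0 elements for width (0%, lowest adjusted p = 0.415, 123 at an unadjusted p under 0.05). It called 700 without shell FT replicate 2.

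The element with the lowest p for width was chr2:52270204-52274657. Its best peak spanned 4100, 3900, 4200 and 4500 bp in the 4 core libraries and 2100, 1500, 2400 and 1400 bp in the shell. It was thus wider in each core library, with a short or a long list, than in any shell library. The log2 difference was -1.21 (SE 0.18, limma adjusted p = 0.327). At chr5:176697076-176700518 the widths were 2700, 2700, 3000 and 3300 bp in the core and 2000, 1700, 2100 and 1900 bp in the shell. In the shell direction chr5:62914594-62916818 had 1600, 1700, 2200 and 2200 bp in the shell and 1300, 1200, 1800 and 1900 bp in the core, wider in the shell in every pool, with groups that overlapped. The element chr13:54055621-54058017, named above for its rank, was also among the 5 shell elements with the lowest p for width, at 2025 ± 287 bp in the shell and 1600 ± 440 bp in the core (SD, n = 4, limma adjusted p = 0.327).

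Regions outside the accumbens had no part in choosing these elements, and they differed in which set they held higher. Cut to the same length where longer (3 of the 86 lists were shorter), each list gave the mean percentile of the shell elements and of the core elements, with 0 for an element without a peak. In the prelimbic cortex the shell elements averaged a percentile of 69.4 and the core elements 37.6, beside 58.5 for all elements tested, and the shell elements stood higher in 4 of 4 libraries by 29.6 to 34.5 points. The insular cortex had 71.0 against 42.2, the periaqueductal grey (PAG) 51.5 against 25.1, the arcuate nucleus (arc) 63.0 against 40.5 and the centromedial amygdala 71.3 against 49.1, each in every library. The cingulate cortex followed with 68.4 against 52.4 and the infralimbic cortex with 67.0 against 53.3. These regions thus held the shell elements above the core elements, as the shell does. In each of them the core elements lay further below the mean of all elements tested than the shell elements lay above it. The core and shell elements stood at -22.9 and 3.46 points from that mean in PAG, and at -18.5 and 3.93 points in arc.

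At the other end stood Snt, Raphe, LH, BNST and VTA. In Snt the core elements averaged a percentile of 85.6 and the shell elements 40.0, and the difference, shell minus core, lay between -48.4 and -43.2 points in its 4 libraries. Raphe had 82.6 against 44.5, LH (lateral hypothalamus) 84.0 against 47.1, BNST 86.5 against 50.2 and VTA 82.8 against 47.4, in every library of each. The dorsomedial thalamus (MDT), the medial septum (MS) and the lateral septum (LS) had the same direction, with differences of -27.2, -22.7 and -18.0 points. Between the ends, the dorsal and ventral dentate gyrus (dorDG, venDG) stood on the shell's side in 3 of 4 libraries and the habenula (HB) was split over its 2 libraries, 1 of which had almost no peaks at these elements. In all, 9 of 23 regions lay on the shell's side and 14 on the core's, and this count was the same with the pool, no covariate or the list length in the fit. Sides are read against 0, though the core elements were the stronger sites in the accumbens (median mean rank 5748, against 7907 for the shell elements). A small negative difference, as in MPOA (-5.50 points), HB (-6.85) or BLA (-9.17), thus does not by itself place a region with the core. Which regions lie where is a description, since the libraries of a region share its cells and the elements are not replicates.

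**Figure D5:**
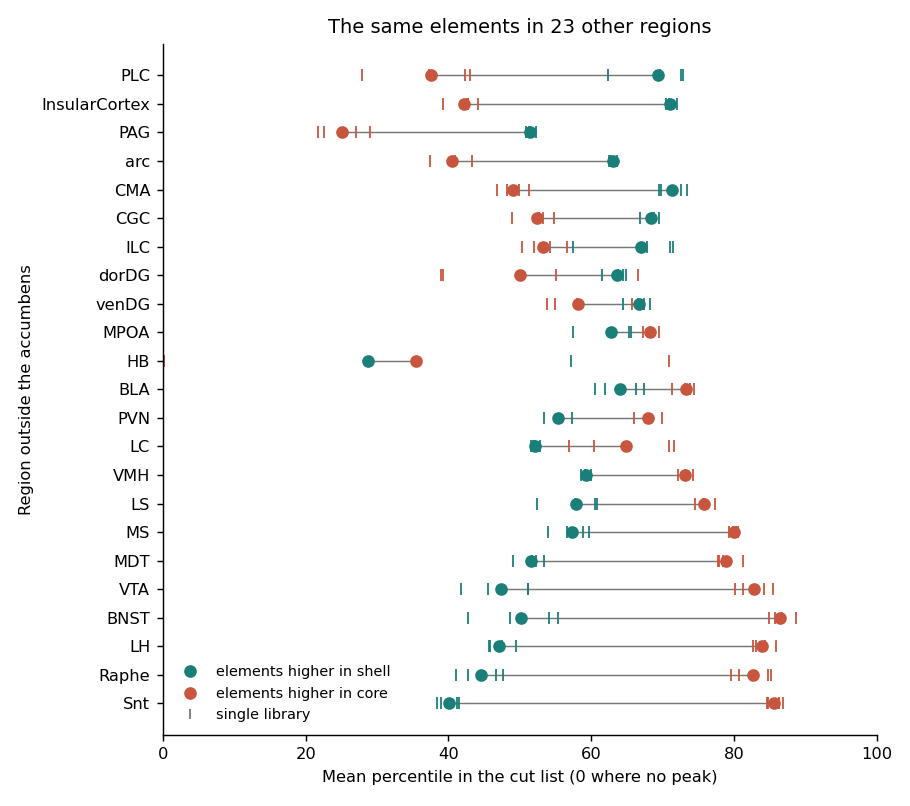
Mean percentile in the cut list (horizontal axis, 0 where no peak) of the elements ranked higher in shell (green) and higher in core (red) in 23 regions outside the accumbens, with ticks for single libraries and regions in order of the difference. The difference, shell minus core, runs from 31.8 points in PLC to -45.6 points in Snt.

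By windows 22 of 23 regions lay on the same side as by rank, 10 of them on the shell's, though not in the same order. The exception was MPOA, whose difference, shell minus core, was -5.50 points by rank and 16.4 by windows, in 3 of 3 libraries each. By rank, MPOA held the shell elements at -0.88 points and the core elements at 4.62 points from all elements tested. Libraries of InsularCortex occupied on average 57.0% of the 160 shell windows and 8.87% of the 899 core windows, beside 50.5% of all 79684 windows. For CMA the shares were 59.5% and 12.6%, for CGC 57.7% and 13.9% and for PLC 49.8% and 6.03%. Snt libraries occupied 22.7% of the shell windows and 88.3% of the core windows, BNST libraries 25.9% and 89.2%, Raphe 26.4% and 82.7%, LH 30.2% and 82.2% and VTA 29.7% and 81.1%. On the 10000 and on the 5000 best peaks 15 of 23 regions lay on the shell's side. Core windows were rarely without a counterpart, 16 of 899 (1.78%) being occupied in none of the 86 libraries, against 9.46% of all windows and 15 of the 160 shell windows (9.38%). By locus, 671 of the 812 core loci (82.6%) were occupied in every Snt library and 621 (76.5%) in every BNST library, against 27 (18%) and 7 (4.67%) of the 150 shell loci.

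Called elements lay on every chromosome tested. The share called for the core ran from 8.38% of 358 elements on the X to 17.1% of 415 on chromosome 13, and the share called for the shell from 4.78% of 418 on chromosome 14 to 10.9% of 805 on chromosome 7. Some megabases held several of one direction. On chromosome 8 from 48 to 49 Mb, 10 of 27 elements ranked higher in the core and none higher in the shell. On chromosome 5 from 82 to 83 Mb the core had 9 of 18 and on chromosome 18 from 48 to 49 Mb 8 of 13, again with none in the opposite direction. The densest megabase for the shell, on chromosome 10 from 55 to 56 Mb, had 7 of 27 with 1 element for the core, and on chromosome 12 from 41 to 42 Mb, which also holds the strongest shell locus, the shell had 6 of 18 and the core none. These megabases were picked as the highest counts and are a description.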

How the data were processed

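H3K27ac ChIP-seq peak lists of 94 libraries were used as deposited. Per the labels and the study's methods, the authors aligned reads with BWA to rn5 and called peaks per library with DFilter, with versions not given in the sources used here. The deposited files give, per peak, a maxScore and a whole-number normalised tag count (both treated as a score), a -log10 p between 4 and 200, and a false discovery rate in percent that the authors' files list as 0 throughout. Peak widths are multiples of 100 bp, which bounds the precision of width. As there are no read counts, the study's count test on reads per peak could not be run and ranks within a list were compared in its place.

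Lists were cut to the 24429 best peaks by maxScore. Occupancy used 1 kb windows of the 20 autosomes and the X. Exact permutation tests ran over all 70 assignments of 8 samples, two-sided. Elements were fitted with limma 3.58.1 (R 4.3.3) on normal scores of rank or log2 width, with treatment as covariate and a Benjamini-Hochberg threshold of 0.05. The 10 loci with most windows per direction (ties by mean rank) and the 5 elements per direction with the lowest p by rank and by width were named. Scripts were tested on simulated lists. The alternatives were other list lengths, windows and covers, a stricter -log10 p, leaving out each library, other covariates, a replicate block, other ranks and other widths. The subregions, lists and tests were chosen with earlier results of these data known, and the list-length covariate, the pools of like length, the reading between replicate numbers and the centred likeness were added after seeing the data. Replicates of a subregion are separate pools of 10 animals, but shell and core libraries of a pool may share their animals. Except with the replicate block, the tests treat the 8 libraries as independent. Their p-values thus measure the spread between libraries and ignore that pairing. The 4 input libraries had no peak list and were not used here.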

Additional observations from a re-analysis of the deposited data

Results flagged for a closer look

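Within each subregion, 60 groups of 4 libraries were tested for a library far from the other 3 (Dixon's test at the 95% level, which chance passes in about 1 group in 20), and 6 passed. In 5 of them the library was shell FT replicate 2, with the longest of the 8 lists. It covered 82.0 Mb, where the other shell libraries covered 34.3 to 41.5 Mb, and 0.293% of its full list were peaks of at least 4 kb, against 0.0368% to 0.0687%. On the cut lists its median width was 2100 bp, against 1400 to 1500 bp, and its share of wide peaks 0.573%, against 0.0368% to 0.0819%. At chr6:1256874-1259610 its peak spanned 1800 bp, against 1100 to 1200 bp in the other shell libraries. In the remaining group, shell Sham replicate 1 ranked 9103 at chr8:46067725-46069669, where the other shell libraries ranked 7894 to 8004.

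Some sites differed between shell and core in opposite directions in Sham and in FT, in every library of each treatment. Of windows, 52 were the shell's in Sham and the core's in FT, and 11 the reverse. By element rank, 282 were higher in the shell in Sham and in the core in FT, and 430 the reverse. By element width the counts were 52 and 11. As a share of the sites chosen in Sham these were 3.06% and 0.345% of windows, 7.88% and 12.8% of elements by rank and 11.9% and 0.303% by width. The share of all sites with that direction in FT was 8.34%, 2.28%, 31.5%, 36.5%, 35.7% and 0.342%. Reversal was rarer than this share except by width from core to shell, where 0.303% was close to 0.342%. For rank and width the difference between treatments was tested by limma's interaction term, which called 0 elements of either. For windows it was not tested.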

How the results depend on the processing

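The number of windows of a single subregion moved by more than 1.5 times with full lists (22 shell, 536 core), 5 kb windows (0 and 29), equal covered length (329 and 506), a cover of 10% (300 shell) and peak centres (425 core). It ranged from 205 to 384 for the shell and 977 to 2254 for the core with 1 library left out, where fewer libraries have to agree. The difference in Jaccard index passed on the 10000 best peaks (0.0781), the 5000 best (0.120) and peak centres (0.0411), and ranged from 0.0174 to 0.0869 with 1 library left out.

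The share of moved windows, those that differed, that kept their direction shifted with nearly every list. The share of all windows given beside it is likewise over those that differed. For shell windows read from Sham to FT it was 75.8% on the 10000 best peaks, 85.9% on the 5000 best, 64.9% on the shortest list of all 94 libraries, 68.2% with a cover of 10%, 68.9% with peak centres, 84.5% at equal covered length, 66.0% at -log10 p of at least 6, 62.1% when chosen in pools of like list length, and 85.5% and 74.2% when chosen in replicate 1 or 2 of both treatments and read in the other. It fell below the share of all windows on full lists (23.6% against 24.5%) and in 5 kb windows (11.1% of 18 moved windows against 15.3%). For core windows it was 98.5% on full lists, 94.1% on the 10000 best peaks, 97.7% on the 5000 best, 99.3% in 5 kb windows, 94.3% with a cover of 10%, 83.9% with peak centres, 87.1% at equal covered length, 96.5% in pools of like list length and 91.3% when chosen in replicate 1 and read in replicate 2. From FT to Sham the shell had 71.3% on full lists, 85.8% on the 5000 best peaks, 100% of only 3 moved windows of 5 kb and 71.9% with peak centres, and the core 85.8% on full lists, 92.6% on the 10000 best, 95.3% on the 5000 best, 89.7% on the shortest list of all libraries, 94.3% in 5 kb windows, 79.8% with peak centres, 90.1% at equal covered length and 91.6% at -log10 p of at least 6. From FT to Sham, and for core windows in either reading, every share lay above that of all windows.

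Elements called by rank moved to 568 for the shell with no covariate, to 295 and 830 (shell, core) with list length as covariate, to 42 and 832 on full lists, to 420 and 1063 with a peak in at least 4 lists and to 1545 for the shell with ranks by tag count. With 1 library left out they ranged from 1 to 975 for the shell and from 0 to 1824 for the core. Elements whose ranks did not overlap were 240 for the shell on full lists and 3546 for the core with a peak in at least 4 lists, and 1411 to 1852 for the shell with 1 library left out. Leaving out a library loosens this criterion, for ranks and widths alike. The interaction by rank called 691 elements with a peak in at least 4 lists, and 0 to 2 with 1 library left out. The median rank difference over all elements changed sign on full lists (-0.13) and with a peak in at least 4 lists (-0.0493). The difference in rank correlation ranged from 0.0904 to 0.155 with 1 library left out and did not pass without core Sham replicate 2 or core FT replicate 2. Elements whose widths did not overlap were 3 for the shell on full lists and 1 by covered bases, and 0 to 7 (shell) and 276 to 3032 (core) with 1 library left out. The width interaction then called 0 to 700. The likeness to other regions passed in 14 of 23 once centred.

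Same-numbered shell and core libraries were checked for pairing by the correlation of their replicate differences in rank score across elements, which was 0.0721 in Sham and -0.0447 in FT. With the replicate block limma called 579 elements for the shell and 1222 for the core by rank. Exchanging labels only within pools, the difference in rank correlation (0.119) had p = 0.125, the smallest such an exchange allows, so that no result can pass under it. Peaks without read counts limit the depth to which any site can be judged. An unoccupied window may still hold a deposited peak that was cut away or that covered too little of the window. The cut removed from 0% of the peaks (shell FT replicate 1) to 50.7% (shell FT replicate 2). An unoccupied window was thus not shown to be unacetylated. Of the causes of these shifts, none was tested.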

Other observations

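The likeness of shell and core libraries to other regions was also taken over all windows. As computed, the mean Jaccard index with each of 23 regions passed in none of them (exact permutation test over samples, Benjamini-Hochberg adjusted over the 23, lowest adjusted p = 0.219, with 1 region, BNST, at an unadjusted p under 0.05). BNST had a Jaccard index of 0.494 ± 0.0521 with the shell and 0.612 ± 0.0392 with the core (SD, n = 4). These values carry the general likeness of a library to every other library. When the mean of each accumbens library over all regions was subtracted, a choice made after seeing the data, 14 of 23 regions passed, all at an adjusted p of 0.0469 from the smallest permutation p that 4 against 4 allows. The centred difference, shell minus core, was 0.0656 for PLC, 0.0548 for ILC, 0.0528 for InsularCortex, 0.0489 for CMA and 0.0456 for CGC. It was -0.0833 for BNST, -0.0700 for Snt, -0.0613 for Raphe, -0.0569 for LH and -0.0551 for VTA. Each of these centred differences had the same direction in 4 of 4 pools. Centring makes the 23 values of a library sum to 0, so a lower likeness to some regions raises the others. As computed, 5 of 23 regions were nearer the shell. The difference was then 0.0303 for PLC, 0.0195 for ILC, 0.0175 for InsularCortex, 0.0136 for CMA and 0.0103 for CGC (exact permutation p from 0.143 to 0.771). For these 5 regions the direction was therefore the same as computed, but passing the test rests on the centring. With labels exchanged only within pools no region can pass.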
